A study of Danio rerio with 15 samples.

Results

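The genes described here are 9 zebrafish genes of cytokine signalling and of its feedback: socs1a, socs3a, socs3b, cish, stat3, jak1, cebpb, cebpd and il1b. They were chosen by gene name, with earlier results of these data known, and were joined by gene identifier across the deposited tables, which list 24609 genes in all. All 9 stand in each of the 3 tables. Injection of zymosan was accompanied by higher socs3a, socs3b, stat3, cebpb and cebpd RNA in both genotypes injected. il1b was also called higher, on few counts, and that call was lost without some single libraries. The triple mutants differed from wild type at fewer of these genes, with lower cebpb in uninjected and in injected larvae, and higher stat3 in injected larvae.

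Many cytokines act through receptors that have no enzyme activity of their own and borrow it from bound Janus kinases such as Jak1. The kinases phosphorylate STAT proteins, which enter the nucleus and switch on target genes. Stat3 is the main STAT downstream of receptors that share the gp130 subunit, encoded by il6st, and it drives much of the acute-phase response of the liver. Among its targets is SOCS3, which binds the receptor and the kinase and shuts the signal off. SOCS1 and CISH are related inhibitors with other preferred receptors. C/EBP-beta and C/EBP-delta are leucine zipper transcription factors of the same acute-phase and inflammatory programme, and interleukin 1 beta is a secreted inflammatory cytokine released by activated macrophages and neutrophils. These roles were worked out mostly in mammals. Zebrafish keep a pair of copies of several of these genes, among them socs3a and socs3b.

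RNA came from whole larvae of the TL strain 4 days after fertilization, raised with the pigment blocker PTU, and 5 groups of 3 libraries were compared. They were uninjected rraga mutants, zymosan A-injected triple mutants (mutant at once in tfeb, tfe3a and tfe3b), uninjected triple mutants, zymosan A-injected wild type and uninjected wild type. Zymosan is a preparation of yeast cell wall taken up by phagocytes. Tfeb and Tfe3 are transcription factors of lysosomal genes, and rraga encodes RagA, a lysosomal GTPase that brings mTORC1 to the lysosome. The submitters' stated question was how far Tfeb and Tfe3 activate lysosomal pathways under an inflammatory challenge. The kind of lesion, the site, dose and time of injection, and the number of larvae in a library are not given in the sources used here. No group received a mock injection, so the zymosan and the handling and wound of injection cannot be told apart. Injected and uninjected larvae shared strain, age in days and rearing. Age is known here only to the day, so a difference in the hour of collection could not be told apart from zymosan either.

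Library totals lay between 12314113 and 17566540 counts, and the mitochondrial genome took 7.99% to 14.01% of them. In the triple mutants tfe3b RNA was lower than in wild type, with a mean of 0.108 CPM (counts scaled by library size) in uninjected triple mutants and 1.68 CPM in uninjected wild type, whereas tfeb and tfe3a RNA did not pass the test. In the rraga mutants rraga RNA was higher, with a mean of 26.0 CPM in rraga mutants and 14.7 CPM in uninjected wild type, so its level does not mark the lesion. The third zymosan-injected wild-type library stood apart from its replicates. Its counts differed from theirs with a chi-square per degree of freedom of 24.76 and 22.92, against 5.58 between the other two, and its mitochondrial share was 9.4%, against 14.01% and 13.47%. Its summed level of 8 muscle genes was also lower, at 57400 CPM against 83200 and 81000 CPM. In the other groups the mitochondrial share ran from 7.99% to 12.65% and the muscle sum from 47200 to 76400 CPM. By these measures the third library lay within the range of the other groups and its replicates lay above it. Which of the 3 libraries is unusual therefore cannot be told. Within the other groups the chi-square per degree of freedom between libraries ran from 3.86 to 15.86. The highest of these was between uninjected triple mutants 1 and 2, and the second of them also had the lowest mitochondrial share, 7.99%. Of the cell type markers looked up, lyz was at 0 counts in zymosan-injected triple mutants, cxcr1 in both uninjected triple mutants and uninjected wild type, and c1qc in the 3 uninjected groups.

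Per unit of gene length, the C/EBP genes were the most abundant of the 9 and il1b the least. Levels per length are given as RPKM, which is CPM divided by gene length in kilobases. In uninjected wild type the mean was 63.7 RPKM for cebpd, 20.6 RPKM for cebpb, 7.11 RPKM for socs3b, 5.92 RPKM for cish, 4.72 RPKM for socs3a, 4.62 RPKM for stat3, 2.59 RPKM for socs1a, 0.418 RPKM for jak1 and 0.0075 RPKM for il1b (n = 3). Neighbours in this order did not overlap between libraries except socs3a and stat3, whose ranges were 3.41 to 5.4 RPKM and 3.8 to 5.36 RPKM. In zymosan-injected triple mutants the order was cebpd at 131 RPKM, cebpb at 47.2 RPKM, socs3b at 38.5 RPKM, socs3a at 18.7 RPKM, stat3 at 15.9 RPKM, cish at 6.98 RPKM, socs1a at 3.06 RPKM, jak1 at 0.603 RPKM and il1b at 0.243 RPKM. Both socs3 genes thus stood above cish in injected larvae of either genotype, while in uninjected wild type cish stood between them. All levels below are in CPM and compare libraries for the same gene.

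**Figure D1:**
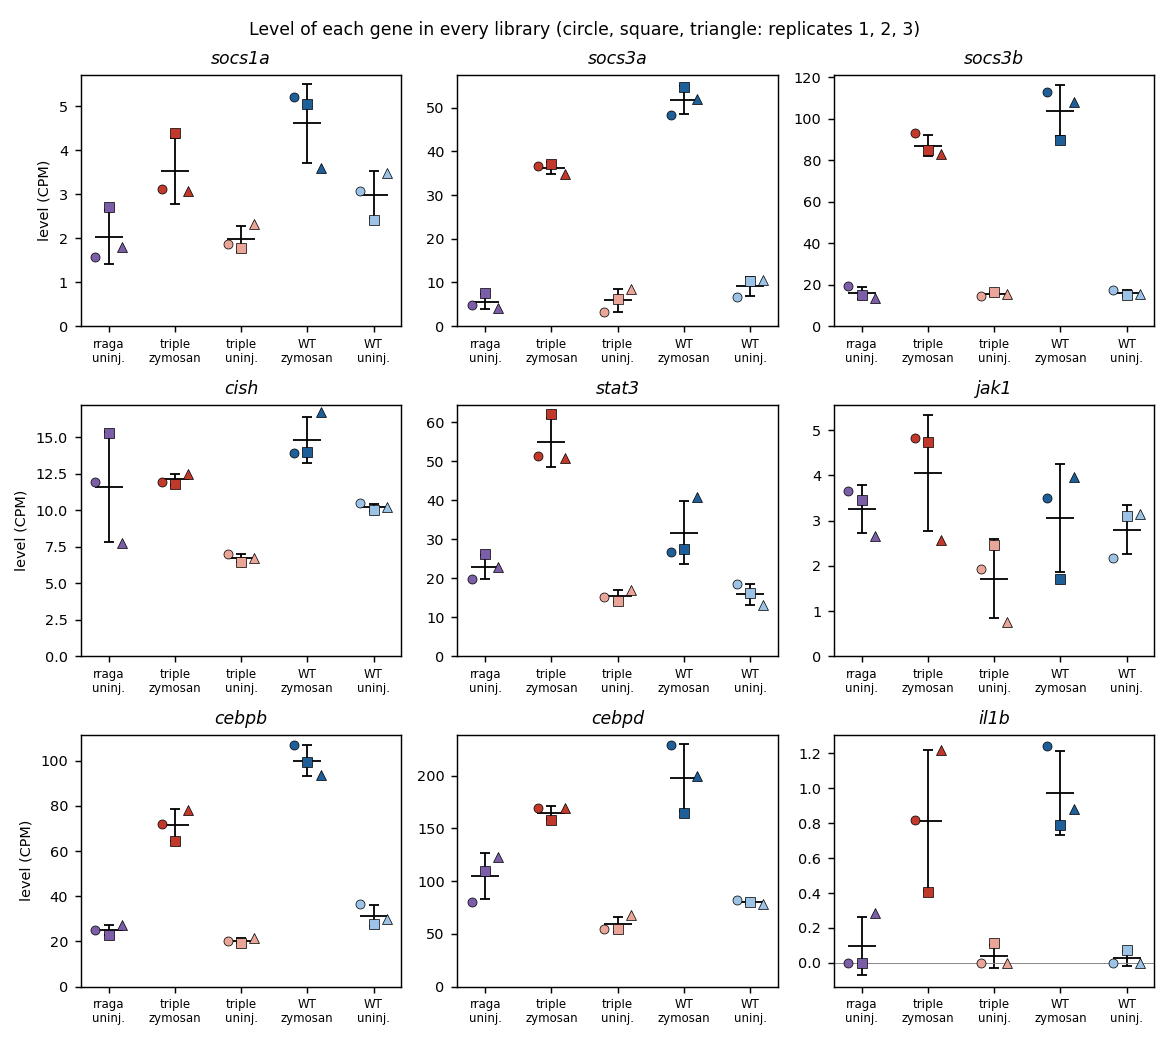
Level of each of the 9 genes in CPM (vertical axis, linear and including 0) in uninjected rraga mutants, zymosan-injected and uninjected triple mutants, and zymosan-injected and uninjected wild type. Points are libraries, the horizontal bar is the mean and the whiskers are 1 SD (n = 3). The injected libraries of socs3a, socs3b, cebpb and cebpd lie above all uninjected libraries of every genotype, and stat3 is highest in injected triple mutants, between 50.9 and 62.0 CPM.

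Zymosan-injected triple mutants were compared with uninjected triple mutants, and zymosan-injected wild type with uninjected wild type. Of the 9 genes, 8 were higher in injected triple mutants (edgeR quasi-likelihood test, Benjamini-Hochberg adjusted p under 0.05 over 19006 genes), where 7.64% of all genes tested were higher. In injected wild type 6 were higher, against 6.07% of all genes tested. None was lower, against 5.18% of all genes tested in triple mutants and 3.83% in wild type. The median log2 fold change over the 9 genes was 1.82 in triple mutants and 1.3 in wild type, and over all genes tested it was 0.0 in both. il1b entered these counts only through its injected groups, since no uninjected library reached the abundance that the filter on low counts asks for.

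Among the inhibitors, both socs3 genes passed the test in both genotypes, cish passed in triple mutants and missed the threshold in wild type, and socs1a passed in neither. The log2 fold changes of cish and socs1a were close, at 0.84 and 0.83 in triple mutants and 0.54 and 0.63 in wild type. socs3b is ENSDARG00000026611 on chromosome 12, from 34258139 to 34277465 on the plus strand of GRCz11. It stood at 93.1, 85.1 and 83.2 CPM in zymosan-injected triple mutants, against 14.4, 16.3 and 15.5 CPM in uninjected triple mutants. In wild type it stood at 113, 89.8 and 108 CPM in injected larvae, against 17.6, 15.1 and 15.6 CPM in uninjected larvae. Every injected library was thus above every uninjected one, and the uninjected groups of both genotypes lay together. The log2 fold change was 2.5 ± 0.13 in triple mutants (SE; adjusted p = 3.18e-12 with edgeR) and 2.68 ± 0.13 in wild type (adjusted p = 2.48e-12 with edgeR), the smallest adjusted p among the 9 genes in both. On the other strand socs3b is overlapped by pgs1, a gene of phospholipid synthesis, and by CU855552.1. Whether counting used strand is not stated. pgs1 averaged 5.02 CPM in injected and 6.28 CPM in uninjected triple mutants, and 3.66 CPM in injected and 6.03 CPM in uninjected wild type, and CU855552.1 had 2 counts in all libraries together.

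The copy socs3a (ENSDARG00000025428, chromosome 3, 57423137 to 57425961, minus strand) moved by a like factor at a lower level. It stood at 36.6, 37.2 and 34.8 CPM in zymosan-injected triple mutants, against 3.18, 6.18 and 8.48 CPM in uninjected triple mutants. In wild type the values were 48.4, 54.8 and 52.1 CPM in injected larvae, against 6.6, 10.3 and 10.5 CPM in uninjected larvae. The injected groups were tight, while the uninjected libraries spread more widely for their level. The log2 fold change was 2.61 ± 0.23 in triple mutants (adjusted p = 2.39e-08 with edgeR) and 2.51 ± 0.22 in wild type (adjusted p = 4.05e-08 with edgeR). Within a library and per length, the log2 ratio of socs3a to socs3b averaged -1.04 ± 0.08 in injected and -1.25 ± 0.65 in uninjected triple mutants, and -0.77 ± 0.26 in injected and -0.62 ± 0.49 in uninjected wild type (SD, n = 3 each). socs3b was the more abundant copy in each group on average, and the ratio differed between injected and uninjected larvae by less than the spread of the uninjected libraries.

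cish (ENSDARG00000060316, chromosome 6, 41503854 to 41506749) encodes the inhibitor best known from STAT5-coupled receptors. It stood at 11.9, 11.8 and 12.5 CPM in zymosan-injected triple mutants, against 6.98, 6.46 and 6.76 CPM in uninjected triple mutants, a log2 fold change of 0.84 ± 0.19 (adjusted p = 0.00389 with edgeR). In wild type it stood at 13.9, 14.0 and 16.7 CPM in injected larvae, against 10.5, 10 and 10.2 CPM in uninjected larvae. The wild-type groups did not overlap either, but the log2 fold change of 0.54 ± 0.19 (95% interval 0.17 to 0.9) missed the threshold (adjusted p = 0.0724 with edgeR). socs1a (ENSDARG00000038095, chromosome 3, 26813058 to 26814953), a broad inhibitor of Janus kinases, was scarce. Its levels were 3.12, 4.4 and 3.08 CPM in injected against 1.87, 1.78 and 2.33 CPM in uninjected triple mutants, and 5.21, 5.06 and 3.59 CPM in injected against 3.08, 2.41 and 3.48 CPM in uninjected wild type. Again the injected libraries were above the uninjected ones in both genotypes, yet neither log2 fold change passed. In triple mutants it was 0.83 ± 0.32 (95% interval 0.21 to 1.46, adjusted p = 0.0943 with edgeR). In wild type it was 0.63 ± 0.31 (95% interval 0.02 to 1.23, unadjusted p = 0.0545 and adjusted p = 0.238 with edgeR). Of all genes tested, 16.3% had every injected triple mutant library above every uninjected one, and 13.4% did so in wild type. The other copy, socs1b, had 2 counts in injected triple mutants and 0 in each of the other groups.

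stat3 (ENSDARG00000022712, chromosome 3, 17030665 to 17107445) rose in both genotypes. It stood at 51.4, 62.0 and 50.9 CPM in zymosan-injected triple mutants, against 15.1, 14.1 and 17 CPM in uninjected triple mutants, a log2 fold change of 1.83 ± 0.16 (adjusted p = 2.38e-08 with edgeR). In wild type it stood at 26.7, 27.5 and 40.9 CPM in injected larvae, against 18.5, 16.1 and 13.1 CPM in uninjected larvae, a log2 fold change of 0.99 ± 0.16 (adjusted p = 0.00021 with edgeR). The high wild-type value, 40.9 CPM, belongs to the third library, which stood apart from its replicates. The kinase gene jak1 (ENSDARG00000020625, chromosome 6, 31368071 to 31429161) was scarce and noisy. Its levels were 4.83, 4.74 and 2.58 CPM in injected against 1.94, 2.45 and 0.751 CPM in uninjected triple mutants, a log2 fold change of 1.22 ± 0.4 (adjusted p = 0.0466 with edgeR). In wild type they were 3.5, 1.71 and 3.97 CPM in injected against 2.18, 3.09 and 3.14 CPM in uninjected larvae, which overlapped, with a log2 fold change of 0.13 ± 0.39 (95% interval -0.64 to 0.9, adjusted p = 0.891 with edgeR). The jak1 call in triple mutants was lost without any of 4 libraries: without uninjected triple mutant 1 (adjusted p = 0.0804 with edgeR) or 3 (0.192), or injected triple mutant 1 (0.154) or 2 (0.144).

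Both C/EBP genes rose. cebpb (ENSDARG00000042725, chromosome 8, 28448267 to 28449782, minus strand) stood at 72.0, 64.3 and 78.3 CPM in zymosan-injected triple mutants, against 20.2, 19.2 and 21.5 CPM in uninjected triple mutants. In wild type it stood at 107, 99.4 and 93.8 CPM in injected larvae, against 36.5, 27.6 and 29.7 CPM in uninjected larvae. Its log2 fold change was 1.82 ± 0.12 in triple mutants (adjusted p = 1.63e-10 with edgeR) and 1.68 ± 0.12 in wild type (adjusted p = 7.08e-10 with edgeR). The 4 groups of cebpb formed 4 separate bands, with triple mutants below wild type in each condition. cebpd (ENSDARG00000087303, chromosome 24, 35564668 to 35565927) stood at 169, 158 and 169 CPM in injected against 55.0, 54.9 and 67.4 CPM in uninjected triple mutants, a log2 fold change of 1.48 ± 0.13 (adjusted p = 2.83e-08 with edgeR). In wild type cebpd stood at 229, 165 and 200 CPM in injected against 81.9, 80.2 and 78.7 CPM in uninjected larvae, a log2 fold change of 1.3 ± 0.13 (adjusted p = 3.15e-07 with edgeR). Injected and uninjected libraries of cebpd did not overlap in either genotype. Per length cebpd was the more abundant of the pair, with a log2 ratio of cebpb to cebpd of -1.48 ± 0.09 in injected and -1.8 ± 0.1 in uninjected triple mutants, and of -1.24 ± 0.21 in injected and -1.64 ± 0.19 in uninjected wild type (SD, n = 3 each).

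The cytokine gene il1b (ENSDARG00000098700, chromosome 10, 44955106 to 44964776) was near 0 without injection. It had 11, 6 and 17 counts in zymosan-injected triple mutants, against 0, 2 and 0 counts in uninjected triple mutants, a ratio of 18.4 after scaling (95% counting interval 4.72 to 158; edgeR adjusted p = 0.0183). In wild type it had 16, 12 and 14 counts in injected larvae, against 0, 1 and 0 counts in uninjected larvae, a ratio of 38.6 (95% counting interval 6.55 to 1560; edgeR adjusted p = 0.0114). Intervals of this kind cover counting error only. Every injected library held more il1b reads than any uninjected one, but the size of the ratio is poorly known. The call was lost without uninjected triple mutant 1 (edgeR adjusted p = 0.0818) or 3 (0.0837) or injected triple mutant 3 (0.0871), and without uninjected wild type 1 (0.0749) or 3 (0.0596).

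**Figure D2:**
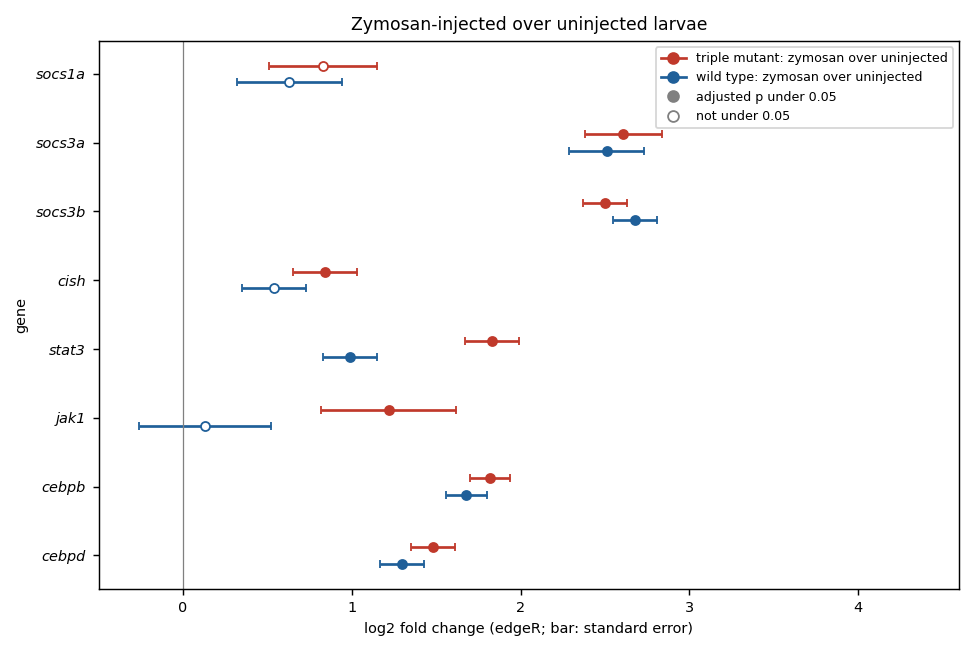
Log2 fold change of zymosan-injected over uninjected larvae (horizontal axis) for 8 of the genes, in triple mutants (red) and in wild type (blue), with bars of 1 standard error from edgeR; filled points have an adjusted p under 0.05. il1b is left out because it had 2 counts in uninjected triple mutants and 1 in uninjected wild type. Both socs3 genes lie between 2.5 and 2.68 in both genotypes, and stat3 is the gene whose points lie farthest apart among those called in both, at 1.83 and 0.99.

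Markers of phagocytes and of enterocytes were set beside these changes, since whole larvae were measured. In bulk RNA, more cells of a type and more RNA per cell cannot be told apart. The summed level of 10 neutrophil markers was 91.4 to 131 CPM in injected and 86.0 to 121 CPM in uninjected triple mutants, and 73.7 to 95.2 CPM in injected and 70.5 to 90.6 CPM in uninjected wild type. Of 8 neutrophil markers tested, 1 was higher and 2 were lower in injected triple mutants, and 0 were higher and 2 lower in injected wild type. The sum of 9 macrophage markers was 21.3 to 25.6 CPM in injected and 16.2 to 19.2 CPM in uninjected triple mutants, which did not overlap, and 20.5 to 27.6 CPM in injected and 20.3 to 27.4 CPM in uninjected wild type, which did. The sum of 5 microglia markers was 269 to 300 CPM in injected and 215 to 265 CPM in uninjected triple mutants. In wild type it was 342 to 367 CPM in injected and 317 to 327 CPM in uninjected larvae, with no overlap in either genotype. Of 4 microglia markers tested, however, 1 was higher and 1 lower in each genotype. Their median log2 fold change was below 0, at -0.48 in triple mutants and -0.44 in wild type, so the sums do not stand for the typical marker. The sum of 8 enterocyte markers was 336 to 405 CPM in injected and 241 to 319 CPM in uninjected triple mutants, and 509 to 531 CPM in injected and 335 to 383 CPM in uninjected wild type. Of these 8, 2 were higher in injected triple mutants and 4 in injected wild type, and 0 were lower in either. The part of these shifts in the results was not tested.

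Whether the response to zymosan differed with genotype was tested directly, as the triple mutant log2 fold change minus the wild-type one. None of the 9 genes passed (edgeR), where 0.142% of all genes tested did. An unadjusted p under 0.05 was found for 1 of the 9 and for 5.75% of all genes tested, and DESeq2 also called none. That gene was stat3, with a difference of 0.84 ± 0.23 (95% interval 0.39 to 1.29, unadjusted p = 0.00131, adjusted p = 0.274 with edgeR). Without the third injected wild-type library the stat3 difference was 1.07 and passed (adjusted p = 0.0186 with edgeR), and with no filter on low counts it stayed at 0.84 and passed (adjusted p = 0.0473 with edgeR). Over leaving out each of the other libraries it ran from 0.71 to 0.96 and did not pass. For jak1 the difference was 1.08 ± 0.56 (95% interval -0.01 to 2.18). The differences of the SOCS3 and C/EBP genes were smaller, at -0.18 for socs3b (-0.53 to 0.16), 0.1 for socs3a (-0.52 to 0.72), 0.14 for cebpb (-0.18 to 0.46) and 0.18 for cebpd (-0.18 to 0.55), all on the log2 scale. For cish the difference was 0.31 (-0.21 to 0.83), and for socs1a it was 0.21 (-0.66 to 1.07).

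Next, triple mutants were compared with wild type in the same condition. These comparisons share libraries with the ones above. In uninjected larvae 3 of the 9 genes were lower in triple mutants, against 5.84% of all genes tested, and none was higher, against 3.93%. They were cebpb, cebpd and cish. In zymosan-injected larvae 1 of the 9, stat3, was higher, against 5.21% of all genes tested, and 1, cebpb, was lower, against 6.66%. Among 9 genes, counts of 1 are not far above such shares. cebpb was the gene called in both conditions.

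cebpb averaged 20.3 ± 1.2 CPM in uninjected triple mutants and 31.3 ± 4.64 CPM in uninjected wild type (SD, n = 3 each), with every triple mutant library below every wild-type one. Its log2 fold change was -0.63 ± 0.12 (adjusted p = 0.000911 with edgeR) in uninjected larvae. In injected larvae it averaged 71.6 ± 7.01 CPM in triple mutants and 100 ± 6.81 CPM in wild type (SD, n = 3 each), a log2 fold change of -0.49 ± 0.11 (adjusted p = 0.00435 with edgeR), again with no overlap. Among all genes tested, every triple mutant library lay below every wild-type one for 15.4% in uninjected and for 13.9% in injected larvae. cebpb lies on chromosome 8, which also carries tfe3a, at a distance of 20.7 Mb. Of 20 other genes tested within 1 Mb of cebpb, 0 were higher and 1 was lower in triple mutants, in uninjected and in injected larvae alike. Muscle markers differed with genotype too, with 3 of 7 tested lower in triple mutants in each condition. Their sums were 47200 to 64100 CPM in uninjected triple mutants and 65100 to 76400 CPM in uninjected wild type. In injected larvae the sums overlapped, at 54600 to 67100 CPM in triple mutants and 57400 to 83200 CPM in wild type. Summed microglia markers were 215 to 265 CPM in uninjected triple mutants and 317 to 327 CPM in uninjected wild type, and 269 to 300 CPM in injected triple mutants and 342 to 367 CPM in injected wild type. Enterocyte markers summed to 336 to 405 CPM in injected triple mutants and 509 to 531 CPM in injected wild type, with 3 of 8 lower, and to 241 to 319 CPM in uninjected triple mutants and 335 to 383 CPM in uninjected wild type, with 1 of 8 lower. The part of these markers in the result was not tested.

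The other genotype calls in uninjected larvae were less stable. cebpd averaged 59.1 ± 7.19 CPM in triple mutants and 80.2 ± 1.64 CPM in wild type (SD, n = 3 each), a log2 fold change of -0.44 ± 0.13 (adjusted p = 0.0361 with edgeR). cish averaged 6.73 ± 0.259 CPM in triple mutants and 10.2 ± 0.247 CPM in wild type (SD, n = 3 each), a log2 fold change of -0.61 ± 0.19 (adjusted p = 0.0493 with edgeR). Neither pair of groups overlapped. The cish call was lost without any of the 6 libraries, with adjusted p between 0.0893 and 0.153 (edgeR). The cebpd call was lost without triple mutant 1 (adjusted p = 0.125 with edgeR) or 2 (0.15), or wild type 1 (0.105), 2 (0.0966) or 3 (0.0821). Around cish, 63 genes were tested within 1 Mb, of which 9 were higher and 4 lower in uninjected triple mutants, against 3.93% and 5.84% of all genes tested. socs3a averaged 5.95 ± 2.66 CPM in uninjected triple mutants and 9.13 ± 2.19 CPM in uninjected wild type (SD, n = 3 each), which overlapped, with a log2 fold change of -0.61 ± 0.25 (95% interval -1.09 to -0.13, adjusted p = 0.132 with edgeR). The socs3a difference passed with no filter on low counts (adjusted p = 0.0437 with edgeR) and without triple mutant 3 (0.0245). The log2 fold changes of socs1a (-0.59), jak1 (-0.68), socs3b (-0.07) and stat3 (-0.05) did not pass either, with 95% intervals of -1.22 to 0.05, -1.48 to 0.12, -0.33 to 0.19 and -0.38 to 0.28.

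In injected larvae stat3 averaged 54.8 ± 6.27 CPM in triple mutants and 31.7 ± 7.99 CPM in wild type (SD, n = 3 each), a log2 fold change of 0.79 ± 0.16 (adjusted p = 0.0012 with edgeR). The lowest triple mutant library, 50.9 CPM, lay above the highest wild-type one, 40.9 CPM, as was so for 13.1% of all genes tested. socs3a averaged 36.2 ± 1.28 CPM in triple mutants and 51.8 ± 3.23 CPM in wild type (SD, n = 3 each), with no overlap and a log2 fold change of -0.52 ± 0.2 that missed the threshold (95% interval -0.91 to -0.12, adjusted p = 0.108 with edgeR). It passed where the model was fitted to these 2 groups alone (adjusted p = 0.00541 with edgeR) and with no filter on low counts (0.0345). For socs3b the log2 fold change was -0.25 (95% interval -0.48 to -0.02, adjusted p = 0.182 with edgeR). For cebpd it was -0.26 (95% interval -0.51 to -0.01, unadjusted p = 0.0576 and adjusted p = 0.223 with edgeR). In the same injected triple mutants, stat3 was thus above wild type, while the log2 fold changes of both socs3 genes lay below 0 and did not pass.

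**Figure D3:**
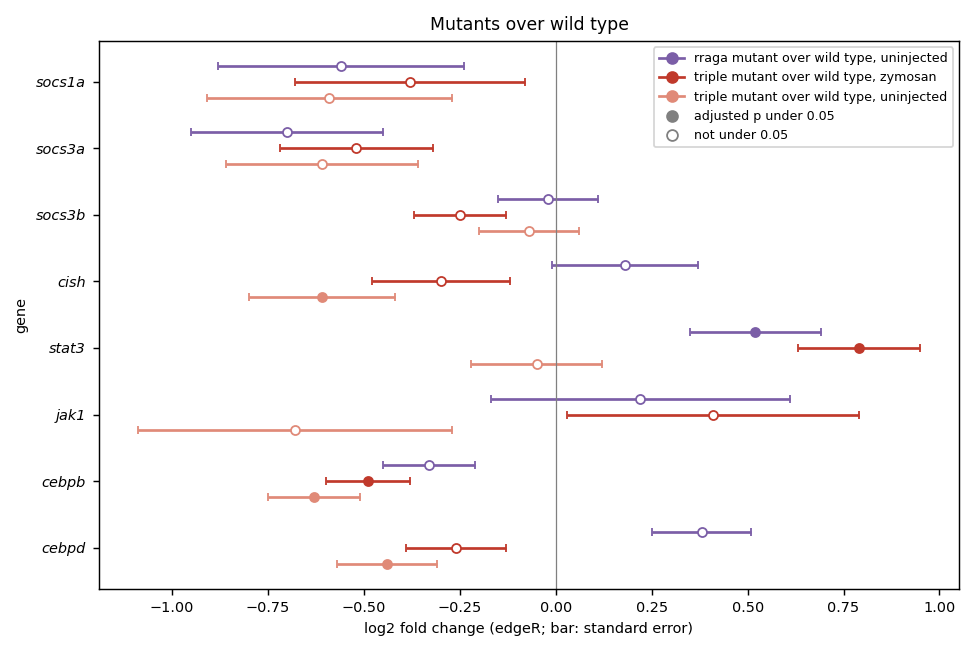
Log2 fold change of mutants over wild type (horizontal axis) for 8 of the genes, for uninjected rraga mutants (purple), zymosan-injected triple mutants (red) and uninjected triple mutants (pink), each over wild type in the same condition, with bars of 1 standard error from edgeR; filled points have an adjusted p under 0.05. il1b is left out for its low counts. cebpb lies left of 0 in all 3 comparisons, at -0.33, -0.49 and -0.63, and stat3 lies right of 0 where it is filled, at 0.52 and 0.79.

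The uninjected rraga mutants were set against uninjected wild type and uninjected triple mutants. Against wild type, 7.58% of all genes tested were higher in rraga mutants and 6.41% lower. Of the 9 genes 1 was higher and 0 were lower, which is near those shares. The gene called was stat3. It stood at 19.8, 26.1 and 22.9 CPM in rraga mutants, against 18.5, 16.1 and 13.1 CPM in wild type, a log2 fold change of 0.52 ± 0.17 (adjusted p = 0.0362 with edgeR). The groups did not overlap, as for 16.0% of all genes tested in this direction, but the call was lost without rraga mutant 2 (adjusted p = 0.165 with edgeR) or 3 (0.063), or wild type 2 (0.0883) or 3 (0.178). cebpd stood at 80.6, 110 and 123 CPM in rraga mutants, against 81.9, 80.2 and 78.7 CPM in wild type, a log2 fold change of 0.38 ± 0.13 that missed the threshold (95% interval 0.12 to 0.64, adjusted p = 0.0558 with edgeR). One rraga library thus lay within the wild-type range and the others above it, and without that library, rraga mutant 1, the log2 fold change was 0.54 (adjusted p = 0.00723 with edgeR). The cebpd difference also passed with DESeq2 (adjusted p = 0.0407), in the 2 groups alone (0.0477) and with no filter on low counts (0.0207). socs3a averaged 5.58 ± 1.76 CPM in rraga mutants and 9.13 ± 2.19 CPM in wild type (SD, n = 3 each; log2 fold change -0.7 ± 0.25, adjusted p = 0.0646 with edgeR). These groups overlapped. The socs3a difference passed with DESeq2 (adjusted p = 0.0323) and with no filter on low counts (adjusted p = 0.0133 with edgeR). It also passed without rraga mutant 2 (0.0231) or wild type 1 (0.0284). cebpb averaged 25 ± 2.2 CPM in rraga mutants and 31.3 ± 4.64 CPM in wild type (SD, n = 3 each; log2 fold change -0.33 ± 0.12, adjusted p = 0.0697 with edgeR). It passed without wild type 2 (adjusted p = 0.0464 with edgeR). il1b had 0, 0 and 4 counts in rraga mutants and 0, 1 and 0 counts in wild type. socs3b, at 15.9 ± 2.98 CPM in rraga mutants and 16.1 ± 1.35 CPM in wild type (SD, n = 3 each), had a log2 fold change of -0.02 (95% interval -0.28 to 0.24).

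Against uninjected triple mutants, 3 genes were higher in rraga mutants, where 13.9% of all genes tested were higher, and none was lower, against 11.5%. cebpd had a log2 fold change of 0.82 ± 0.13 (adjusted p = 7.05e-05 with edgeR), cish one of 0.79 ± 0.19 (adjusted p = 0.00391 with edgeR) and stat3 one of 0.58 ± 0.16 (adjusted p = 0.0124 with edgeR). cish stood at 11.9, 15.3 and 7.75 CPM in rraga mutants, against 6.98, 6.46 and 6.76 CPM in triple mutants. The cish and stat3 calls were lost without rraga mutant 2 (adjusted p = 0.0525 and 0.0777 with edgeR), and the stat3 call also without triple mutant 2 (0.0624). Marker sums also differed in rraga mutants, and their part in these results was not tested. Summed microglia markers were 525 to 546 CPM in rraga mutants and 317 to 327 CPM in uninjected wild type, neutrophil markers were 101 to 147 CPM in rraga mutants and 70.5 to 90.6 CPM in wild type, and neuron markers were 2000 to 2070 CPM in rraga mutants and 2330 to 2560 CPM in wild type. Of the markers tested against wild type, 2 of 4 microglia, 4 of 8 neutrophil and 5 of 8 enterocyte genes were higher and 5 of 8 neuron genes were lower, while 0 of 7 macrophage genes were higher and 1 was lower.

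The rest of the pathway was described from 9 gene lists, which hold 234 genes besides the 9, of which 149 were abundant enough to test. In injected triple mutants 44 of the 149 were higher and 6 lower, with a median log2 fold change of 0.32, and in injected wild type 38 were higher and 4 lower, with a median of 0.28. Of all genes tested, 7.64% were higher and 5.18% lower in injected triple mutants and 6.07% were higher and 3.83% lower in injected wild type, and the median was 0.0 in both. The zymosan counts of each list below stand against these shares, and the lower calls over all lists were near them. The lists differed widely, from 0 of 4 further Janus kinase genes called in either genotype to most of the genes listed as STAT3 targets.

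Upstream, the gene of the shared receptor subunit rose. il6st, which encodes gp130, stood at 120, 122 and 111 CPM in injected triple mutants, against 40.4, 37.6 and 37.9 CPM in uninjected triple mutants, a log2 fold change of 1.61 ± 0.14 (adjusted p = 1.12e-08 with edgeR). In wild type il6st stood at 85.1, 100 and 142 CPM in injected larvae, against 49.6, 49.2 and 42.9 CPM in uninjected larvae, a log2 fold change of 1.21 ± 0.13 (adjusted p = 1.26e-06 with edgeR). Of 27 receptor genes, 6 were higher and 1 lower in injected triple mutants, and 5 were higher in injected wild type. lifrb, a partner of gp130 for leukemia inhibitory factor, and il4r.1, a subunit of the interleukin 4 receptor, rose in both, with log2 fold changes of 1.96 ± 0.28 and 1.83 ± 0.38 in triple mutants and 2.42 ± 0.29 and 2.32 ± 0.37 in wild type. il13ra1, a subunit of interleukin 13 and 4 receptors, had 1.14 ± 0.25 in triple mutants and 1.13 ± 0.25 in wild type. In triple mutants il10rb, an interleukin 10 receptor subunit, was higher (0.64 ± 0.13) and prlra, a prolactin receptor gene, lower (-0.58 ± 0.17), and in wild type ghrb, a growth hormone receptor gene, was higher (0.45 ± 0.13). Among ligands 2 of 14 tested were higher in each genotype, 1 of them lepb, which had no reads in uninjected larvae and so was tested only because of its injected groups. The other was crlf1a, a secreted partner of gp130 family ligands, in triple mutants, at 10.7 ± 1.13 CPM in injected and 5.52 ± 0.663 CPM in uninjected larvae (SD, n = 3 each; log2 fold change 0.95 ± 0.2, adjusted p = 0.00235 with edgeR). In wild type it was csf1b, a gene of macrophage colony-stimulating factor, at 8.28 ± 2.37 CPM in injected and 3.96 ± 0.81 CPM in uninjected larvae (SD, n = 3 each; log2 fold change 1.06 ± 0.29, adjusted p = 0.0206 with edgeR). lepb, one of the leptin genes, whose receptor also signals through STAT3, had 152 counts in injected triple mutants and 160 in injected wild type, against 0 in each uninjected group. It was thus at least 54.9-fold higher in triple mutants and at least 49.0-fold higher in wild type, taking 3 counts over the uninjected group as the floor. il6 had 5 counts in injected triple mutants and 2 in injected wild type, and 0 in each uninjected group, and il11a had 22 in injected and 0 in uninjected triple mutants, and 27 in injected and 6 in uninjected wild type. Both were too scarce to test.

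Among the other STAT genes, 1 of 5 tested was higher with zymosan in each genotype. That was stat1a, a mediator of interferon signalling, at 58.7 ± 3.76 CPM in injected and 40.2 ± 1.36 CPM in uninjected triple mutants, and 60.8 ± 2.16 CPM in injected and 44.1 ± 5.69 CPM in uninjected wild type (SD, n = 3 each). stat6, which acts below the interleukin 4 receptor, differed by genotype, and its change with zymosan did not pass. It had 61 counts in uninjected triple mutants and 48 in rraga mutants, against 1 in uninjected wild type, ratios of 53.8 (95% counting interval 9.3 to 2160) and 46.7 (7.98 to 1880). No wild-type library of stat6 exceeded 0.189 CPM. It therefore passed the filter on low counts only through the mutant groups. Of 6 other SOCS family genes, socs2 and cishb were higher in both genotypes, and socs5a was lower in injected triple mutants. socs2, an inhibitor of growth hormone signalling, had a log2 fold change of 0.92 ± 0.18 in triple mutants and 0.82 ± 0.19 in wild type, and cishb, the other CISH copy, had 1.32 ± 0.41 in triple mutants and 1.66 ± 0.42 in wild type. Of 20 other negative regulators, 3 were higher and 3 lower in injected triple mutants, and 0 higher and 3 lower in injected wild type. ptpn1, a tyrosine phosphatase, stood at 45.3 ± 1.48 CPM in injected and 28.0 ± 1.68 CPM in uninjected triple mutants (SD, n = 3 each; log2 fold change 0.7 ± 0.12, adjusted p = 0.000312 with edgeR). ptpn11b, a gene of the phosphatase SHP2, was higher (0.86 ± 0.19), as was dusp6 (0.49 ± 0.15), a MAP kinase phosphatase gene, and ptpn6, the gene of SHP1, was lower (-1.39 ± 0.41), all in injected triple mutants. pias4a, an inhibitor of STAT proteins, was lower in both genotypes, at -0.42 ± 0.1 in triple mutants and -0.49 ± 0.1 in wild type, and cbl, a ubiquitin ligase gene, was lower in wild type (-0.53 ± 0.15). dusp2, a phosphatase of MAP kinases, was lower with zymosan in both genotypes, by log2 fold changes of -0.75 ± 0.18 in triple mutants and -1.07 ± 0.17 in wild type. It was also lower without injection in triple mutants (-1.05 ± 0.17) and in rraga mutants (-1.22 ± 0.17) than in wild type. Of 7 further genes of the C/EBP family and its Tribbles regulators, 3 were higher in injected triple mutants and 2 in injected wild type. They were trib1 in triple mutants (0.6 ± 0.18) and, in both, trib3 (0.84 ± 0.13 in triple mutants and 0.82 ± 0.14 in wild type) and cebpg (0.4 ± 0.11 in triple mutants and 0.47 ± 0.11 in wild type).

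Genes listed as STAT3 targets, most of them from work in mammals, had the largest share of calls among the lists. Like the other lists, this one was chosen with earlier results of these data known, so its share is a description. In injected triple mutants 21 of 35 were higher and 1 was lower, with a median log2 fold change of 1.1, and in injected wild type 19 were higher and 1 lower, with a median of 0.64. Without the third injected wild-type library 18 were higher and 1 lower in wild type. The fibrinogen chains fga and fgb, made by the liver, had log2 fold changes of 2.14 ± 0.11 and 1.94 ± 0.13 in triple mutants and of 1.69 ± 0.11 and 1.66 ± 0.13 in wild type. The AP-1 family genes fosl1a and junba rose by 3.55 ± 0.27 and 1.62 ± 0.12 in triple mutants and by 3.08 ± 0.25 and 1.84 ± 0.12 in wild type on the same scale. atf3, a stress-induced transcription factor gene, rose by 2.39 ± 0.18 in triple mutants and 2.01 ± 0.18 in wild type, and irf1b, an interferon regulatory factor gene, by 2.7 ± 0.24 in triple mutants and 3.18 ± 0.26 in wild type. timp2b, a gene of a metalloprotease inhibitor, rose by 2.17 ± 0.18 in triple mutants and 1.81 ± 0.18 in wild type. The exception in direction was ccnd1, the cyclin D1 gene, at -0.48 ± 0.09 in triple mutants and -0.32 ± 0.09 in wild type. In the direct test of a genotype difference, 1 of the 149 genes passed, junbb, which had a difference of 1.22 ± 0.2 (adjusted p = 0.00519 with edgeR). It stood at 40.4, 39.6 and 50.8 CPM in injected and 13.5, 17.2 and 14.9 CPM in uninjected triple mutants, and at 26.5, 35.8 and 31.9 CPM in injected and 24.6, 24.1 and 28.3 CPM in uninjected wild type. In rraga mutants junbb was at 2.72, 3.09 and 3.59 CPM, below all other groups.

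**Figure D4:**
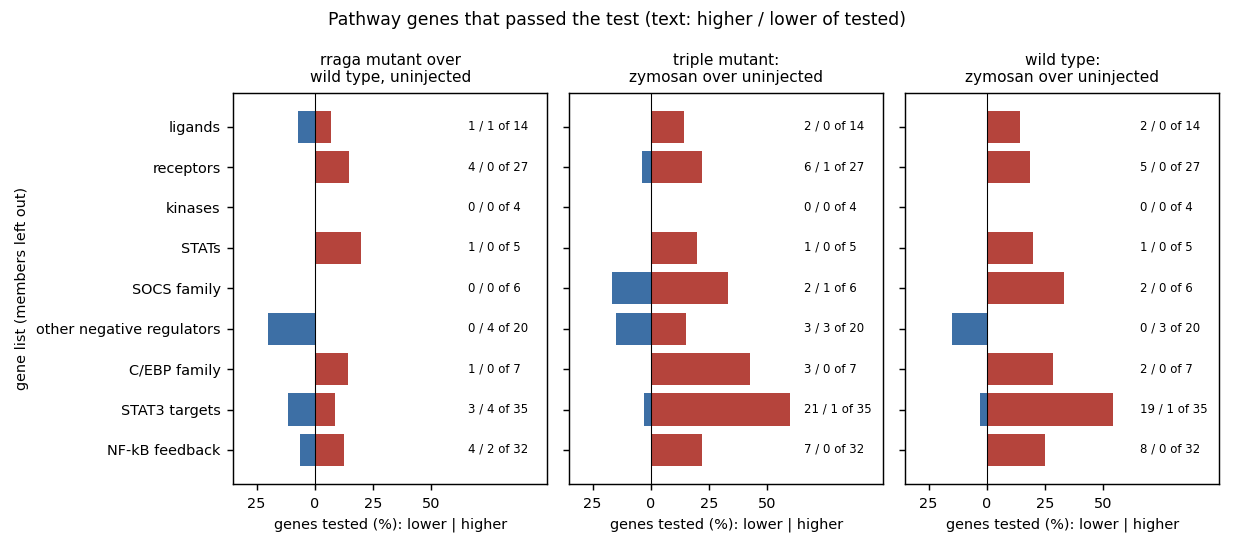
Share of the tested genes of each list that were higher (red, right of 0) or lower (blue, left of 0) by edgeR's adjusted p, in percent, for uninjected rraga mutants over wild type, zymosan-injected over uninjected triple mutants, and zymosan-injected over uninjected wild type; the 9 genes are left out, and the counts higher, lower and tested stand at the right. STAT3 targets have the longest red bars, 21 of 35 in triple mutants and 19 of 35 in wild type, against 3 higher and 4 lower in rraga mutants.

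Between injected triple mutants and injected wild type, 5 of the 35 genes listed as STAT3 targets were higher and 2 lower, with a median log2 fold change of -0.01. Among the 5, fga had a log2 fold change of 0.52 ± 0.1 (adjusted p = 0.00106 with edgeR), mcl1b, a survival gene, had 0.74 ± 0.12 (adjusted p = 8.59e-05 with edgeR) and pim3, a kinase gene, had 0.99 ± 0.21 (adjusted p = 0.00295 with edgeR). The others were fgg and junbb. The 2 lower genes were junba, at -0.61 ± 0.11, and hpda, at -0.68 ± 0.13. hpda is an enzyme gene of tyrosine breakdown, and whether STAT3 acts on it was not tested. Of all genes tested, 5.21% were higher and 6.66% lower, and the median was -0.01 as well.

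The third injected wild-type library was high for stat3 and for some of these genes but not for others. pim3 stood at 12.8, 14.1 and 29.0 CPM in injected wild type, against 11.0, 14.0 and 9.15 CPM in uninjected wild type, and without the third library its log2 fold change was 0.24 (adjusted p = 0.412 with edgeR) in place of 0.72 (adjusted p = 0.0451 with edgeR). For il6st the difference between injected triple mutants and injected wild type was 0.11 (adjusted p = 0.671 with edgeR) with all libraries and 0.35 (adjusted p = 0.0281 with edgeR) without that one. fga, at 302, 339 and 341 CPM, and irf1b, at 19.2, 15 and 16.2 CPM, showed no such rise in it. timp2b stood at 28.5, 24.7 and 41.4 CPM in injected wild type. Without the third library its log2 fold change over uninjected wild type was 1.56. il6st, pim3 and timp2b were picked for this view after their values were seen. The 6 genes of the 9 called in wild type stayed called without the third library, and so did stat3 and cebpb between the injected genotypes.

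**Figure D5:**
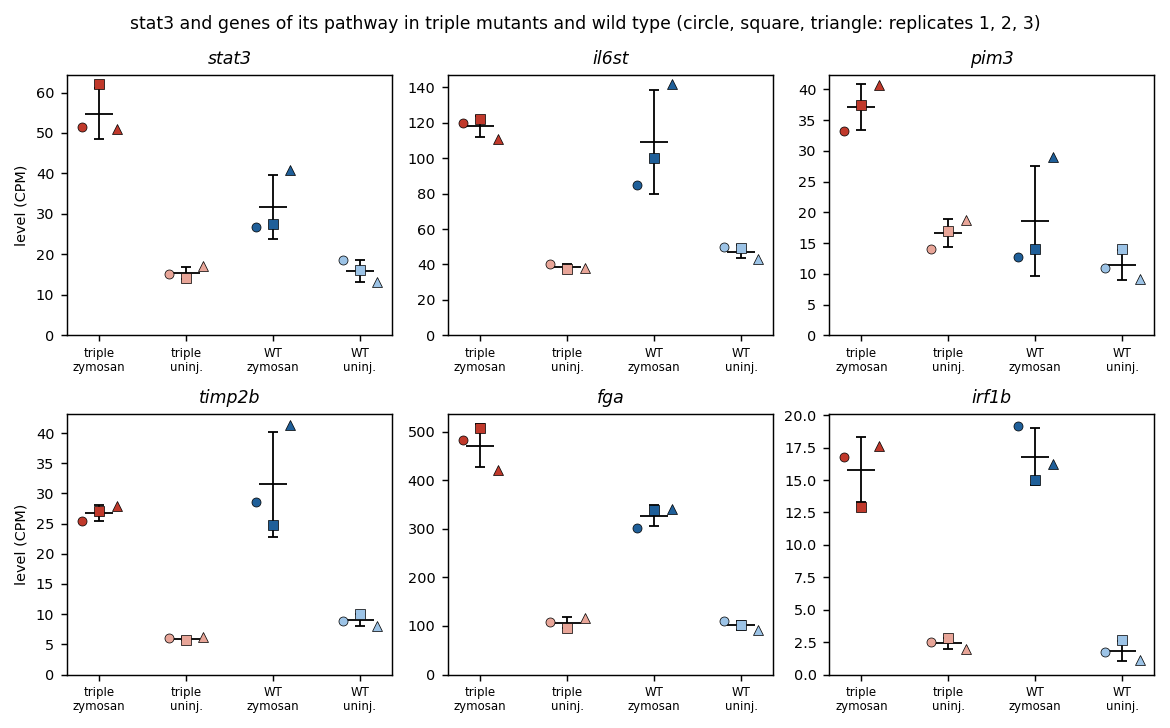
Level in CPM (vertical axis, from 0) of stat3, il6st, pim3, timp2b, fga and irf1b in zymosan-injected and uninjected triple mutants and zymosan-injected and uninjected wild type. Points are libraries, with triangles for the third of each group, the horizontal bar is the mean and the whiskers are 1 SD (n = 3). The injected wild-type triangle stands apart for stat3 at 40.9, il6st at 142, timp2b at 41.4 and pim3 at 29.0 CPM, and not for fga or irf1b.

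The list of NF-kB feedback genes, to which il1b belongs, had fewer calls, with 7 of 32 higher in injected triple mutants and 8 of 32 in injected wild type, and 5 without the third injected wild-type library. Of all genes tested, 7.64% were higher in triple mutants and 6.07% in wild type. cxcl18b, a neutrophil-attracting chemokine gene, had log2 fold changes of 3.03 ± 0.33 in triple mutants and 4.46 ± 0.36 in wild type. mmp9, a matrix protease gene, had 2.29 ± 0.27 in triple mutants and 2.59 ± 0.28 in wild type. ccl34a.4, another chemokine gene, had 126 counts in injected and 16 in uninjected triple mutants, and 99 in injected and 5 in uninjected wild type. In wild type tlr5a (2.42 ± 0.73) and tlr5b (0.9 ± 0.22), genes of a flagellin receptor, and ptgs2a (0.94 ± 0.28), a prostaglandin synthase gene, were also higher. In triple mutants tnfaip2a (0.5 ± 0.13) was also higher. The level of tlr5a was 0.128 to 0.452 CPM in uninjected and 0.778 to 2.56 CPM in injected wild type. That gene passed the filter on low counts only through its injected groups. nfkbiaa and nfkbiab, copies of the gene of the inhibitor IkB-alpha, were higher in injected triple mutants, at 0.9 ± 0.22 and 0.55 ± 0.12. In injected wild type nfkbiaa had 0.6 ± 0.22 and nfkbiab 0.13 ± 0.12, which did not pass, and neither passed the direct test of a genotype difference.

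Without injection, the share of pathway genes called was near that of all genes. Against uninjected wild type, 14 of the 149 were higher and 11 lower in rraga mutants, where 7.58% of all genes tested were higher and 6.41% lower. In uninjected triple mutants 8 were higher and 11 lower, where 3.93% of all genes tested were higher and 5.84% lower. hamp, which encodes the iron hormone hepcidin and is a STAT3 target in mammals, was lower in both. It had 3 counts in rraga mutants and 4 in uninjected triple mutants, against 66 in uninjected wild type. The ratio of rraga mutants to wild type was 0.0442 (95% counting interval 0.00889 to 0.135), and the log2 fold change of triple mutants over wild type was -4.14 ± 0.71 (adjusted p = 0.000296 with edgeR). bcl3, an IkB family gene, was higher, with 28 counts in rraga mutants and 36 in uninjected triple mutants, 27 of them in the second library, against 2 in uninjected wild type. It had 199 counts in injected wild type, and it passed the filter on low counts only through injected groups. clcf1, a ligand of the gp130 family, had 0 counts in rraga mutants, against 30 in uninjected wild type, which made it at least 10.3-fold lower, although 1 of the wild-type libraries also had 0. Of receptor genes, ghrb (0.56 ± 0.13), lifra (0.54 ± 0.15), prlra (0.58 ± 0.17) and ifngr1 (0.84 ± 0.27) were higher in rraga mutants. ube2l3a, listed among the negative regulators, was lower in rraga mutants (-1.81 ± 0.26) and in uninjected triple mutants (-1.35 ± 0.25), and pias2, another inhibitor of STAT proteins, was lower in uninjected triple mutants (-2.2 ± 0.38) while pias1a was higher (1.0 ± 0.22). Between the injected genotypes, 10 of the 149 were higher and 7 lower in triple mutants, near the 5.21% and 6.66% of all genes tested; pias2 was lower there too (-2.82 ± 0.4), as was crfb6 (-0.81 ± 0.17), a cytokine receptor gene, and cntfr, a receptor gene of ciliary neurotrophic factor, was higher (0.6 ± 0.16). Of 10 hepatocyte markers, 2 were lower in uninjected triple mutants than in wild type, and 3 were higher and 1 lower in rraga mutants; of 9 epidermis markers, 0 changed with zymosan in either genotype. The part of these markers in the results was not tested.

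The genes whose levels ran most like these were found by Pearson's r of log2(CPM + 0.5) over the 15 libraries, among 17159 genes with a mean of at least 1 CPM. The 15 libraries fall into injected and uninjected ones, so r mostly ranks genes by how cleanly they separate those, and it is given as a description. For socs3b they were per1b (0.988), lepb (0.988), ciarta (0.987), tsc22d1 (0.987) and oaz2b (0.983). For cebpb they were fosl1a (0.974), btg1 (0.971), junba (0.969), slc3a2b (0.955) and C11orf96 (0.954). For il1b they were slc3a2b (0.96), CABZ01118001.1 (0.949), stk35l (0.944), lepb (0.941) and cxcl18b (0.938). per1b and ciarta are genes of the circadian clock. Age is known only to the day, and the part of the hour of collection in the zymosan results was not tested.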

How the data were processed

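The authors deposited raw counts per gene for 15 libraries in 3 tables that share the uninjected wild-type libraries. Per the submitters' processing notes, the build was GRCz11 and the tools included HISAT2 2.0.5, StringTie 1.3.3b and featureCounts 1.5.0. Gene lengths and positions are those of the deposited tables. No source used here says whether counting used strand, so reads of overlapping genes cannot be told apart. A gene missing from a table was set to 0.

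Counts were fitted with edgeR 4.0.16 in R 4.3.3 (filterByExpr, TMM scaling, a quasi-likelihood fit of 5 group means over all 15 libraries), which tested 19006 genes in 7 contrasts. A gene was called at a Benjamini-Hochberg adjusted p under 0.05. The standard error is the log2 fold change over the square root of F. The 95% intervals of log2 fold changes use it with the quantile of the normal distribution, so they are somewhat narrower than the test implies. Such an interval can exclude 0 where the unadjusted p is over 0.05. The fit was also run on simulated counts, in which all genes had the same dispersion and no library stood apart. Changes were planted there only in genes more abundant than il1b, so that run does not bear on il1b. CPM used TMM-scaled library sizes. The labels call the libraries of a group biological replicates and name no clutch or day, so each p-value reflects the scatter among the libraries at hand, part of which may be technical. The 3 libraries of a group cannot reach an exact permutation p under 0.10 against 3 others, so none is given.

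The 9 genes and all gene lists were chosen with earlier results of these data known. All 9 genes are named. The rule for the lists was to name the genes past the threshold, at most the 6 of smallest adjusted p. It is followed for the zymosan comparisons; in the comparisons between genotypes only some of those genes are named, and these, with il6, il11a, socs1b and ccnd1, were chosen after their values were seen. Alternatives were RLE scaling, no filter, DESeq2 1.42.0, mitochondrial genes left out, a replicate block, the groups of each contrast alone, and leaving out each library. No sequences are shown.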

Additional observations from a re-analysis of the deposited data

How the results depend on the processing

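Over 6 other settings and the 15 that leave out 1 library, 805 values of the 9 genes were recomputed. Of these, 756 kept their side of the threshold, 33 lost a call, 16 gained one and 0 reversed a call. Some of the 756 changed sign where neither fit gave a call. An example was cish in rraga mutants against wild type, at -0.06 to 0.41 on the log2 scale when leaving out 1 library. The zymosan calls of socs3a, socs3b, stat3, cebpb and cebpd in both genotypes, the cebpb calls of triple mutants against wild type, and the stat3 call between injected genotypes held under all settings run. Genes with a genotype difference in the zymosan response numbered 27, with 54 by DESeq2, 77 with no filter and 16 to 50 when leaving out 1 library. Members called there numbered 0, with 1 (stat3) with no filter and 0 to 1 when leaving out 1 library. In uninjected triple mutants against wild type 3 members were called, and 1 to 3 when leaving out 1 library. In rraga mutants against triple mutants 3 were called, and 1 to 3 when leaving out 1 library. In rraga mutants against wild type 1 was called, with 3 by DESeq2, 2 in the groups of the contrast alone, 3 with no filter and 0 to 2 when leaving out 1 library. The cause of these shifts was not tested. The cish call in uninjected triple mutants was also lost with RLE scaling (adjusted p = 0.0524, edgeR) and without mitochondrial genes (0.0504), and the jak1 call in the triple mutant groups alone (0.0541). DESeq2 gave il1b no adjusted p in triple mutants, and il1b was not tested in the triple mutant groups alone.

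No pairing of the libraries by replicate number was seen. Deviations from the group means correlated between same-numbered libraries at -0.122 to 0.104 (median -0.004), over 0.1 in 1 of 30 pairs. Between libraries of other numbers they correlated at -0.171 to 0.212 (median 0.004), over 0.1 in 1 of 60 pairs. With 3 libraries in a group, such correlations cannot tell whether libraries shared a clutch or day. With a replicate block, 7 members were called with zymosan in triple mutants, 6 in wild type, and 20 genes had a genotype difference. The block moved the adjusted p (edgeR) of jak1 in triple mutants to 0.0565, of cish in uninjected triple mutants to 0.0675, of stat3 in rraga mutants against wild type to 0.0521 and of socs3a there to 0.0492. The counts of il1b, 42 at most in a group, limit how well its ratio is known.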
